A study of Mus musculus with 6 samples.

Results

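The genes that encode the collagen prolyl and lysyl hydroxylases and their partners were read from RNA sequencing of cultured neonatal mouse cardiomyocytes (CMs). The members were the 10 genes *P4ha1*, *P4ha2*, *P4ha3*, *P4hb*, *Plod1*, *Plod2*, *Plod3*, *P3h1*, *P3h2* and *Crtap*, chosen by gene symbol, and each of the 10 had 1 row among the 20066 genes of the deposited table. The CMs came from newborn C57BL/6 pups (P0-1, postnatal days 0 to 1), and no group carried a transgene or deletion. One group of 3 libraries came from CMs kept for 96 h with the solvent dimethylsulfoxide (DMSO), and the other 3 came from CMs kept for the same 96 h with 100 µM cell-permeable α-ketoglutarate (αKG), an intermediate of the Krebs cycle. The study gave αKG to ask whether it holds CMs in an immature, dividing state. In a passage on imaging, the study's methods count each isolation of neonatal CMs, made from pooled hearts, as 1 sample. The labels do not say this of the 3 libraries of a group, and p-values measure the spread between these libraries.

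Collagen chains are modified in the endoplasmic reticulum (ER) before they fold into a triple helix. Prolyl 4-hydroxylase, made of α subunits (*P4ha1*, *P4ha2*, *P4ha3*) and the β subunit protein disulfide isomerase (*P4hb*), adds the hydroxyl groups on proline that make the helix stable at body temperature. Lysyl hydroxylases (*Plod1*, *Plod2*, *Plod3*) modify lysines that later carry sugars and cross-links, and prolyl 3-hydroxylases (*P3h1*, *P3h2*) modify a few further prolines, *P3h1* in a complex with the non-enzymatic protein *Crtap*. The α subunits, the lysyl hydroxylases and the prolyl 3-hydroxylases use αKG, molecular oxygen, iron and ascorbate, and turn αKG into succinate, whereas *P4hb* and *Crtap* do not themselves consume it. In the heart, fibroblasts are the main source of fibrillar collagen, and endothelial, mural and muscle cells make the collagen of basement membranes.

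In all 3 αKG libraries the ratio of *P4hb* RNA to the summed RNA of the α subunits was below that of every DMSO library, in the values given further on. The RNA of *P4hb* itself changed little (log2 fold change 0.04), and protein was not measured here. A link between the promoters and this ratio was not tested. The upstream promoter sequences of all 4 subunit genes are shown (RefSeq, GRCm38.p6). Each holds the 250 bases before the annotated start, at chr10:59323046-59323295 (+ strand) for *P4ha1*, chr11:54100674-54100923 (+ strand) for *P4ha2*, chr7:100285270-100285519 (+ strand) for *P4ha3* and chr11:120573254-120573503 (- strand) for *P4hb*. None of these 4 stretches overlaps an exon of GENCODE M21, and the *P4ha2* stretch lies inside the gene as listed, upstream of a later start. Capitals mark ACGTG and GCGTG on either strand, the core letters of the hypoxia response element bound by hypoxia-inducible factor (HIF), a factor whose own prolyl hydroxylases also use αKG.
P4ha1: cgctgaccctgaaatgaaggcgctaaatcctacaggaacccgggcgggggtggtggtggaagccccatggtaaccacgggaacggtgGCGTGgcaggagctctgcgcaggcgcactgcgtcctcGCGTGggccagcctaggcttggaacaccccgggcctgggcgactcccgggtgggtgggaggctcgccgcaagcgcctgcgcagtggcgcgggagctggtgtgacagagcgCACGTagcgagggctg
P4ha2: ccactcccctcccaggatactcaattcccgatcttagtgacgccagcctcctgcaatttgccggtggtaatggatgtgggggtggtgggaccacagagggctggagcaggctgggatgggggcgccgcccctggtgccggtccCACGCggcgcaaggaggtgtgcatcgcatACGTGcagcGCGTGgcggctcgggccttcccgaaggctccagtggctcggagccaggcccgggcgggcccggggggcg
P4ha3: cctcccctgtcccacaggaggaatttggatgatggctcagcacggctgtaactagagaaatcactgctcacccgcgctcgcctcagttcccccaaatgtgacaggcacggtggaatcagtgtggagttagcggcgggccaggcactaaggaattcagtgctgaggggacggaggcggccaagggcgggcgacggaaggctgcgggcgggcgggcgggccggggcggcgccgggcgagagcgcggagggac
P4hb: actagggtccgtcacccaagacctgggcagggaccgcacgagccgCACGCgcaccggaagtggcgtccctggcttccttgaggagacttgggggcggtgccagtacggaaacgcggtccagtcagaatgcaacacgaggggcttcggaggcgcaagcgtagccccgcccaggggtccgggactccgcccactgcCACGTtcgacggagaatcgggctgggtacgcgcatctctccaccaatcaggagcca

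Counting overlapping matches apart, the cores were found at 3 places in the *P4ha1* stretch, 3 in *P4ha2*, 0 in *P4ha3* and 2 in *P4hb*. Of all 32851 promoter stretches of this length in the RefSeq table, without chromosome 18, 38.6% held at least 1 core and 6.58% held 3 or more, so that a single core is common. A match is a description of the letters and not a site. RefSeq promoters were matched for 8 of the 10 genes, without *Plod2* and *P3h2*. Among the others, *Crtap* held 3 cores, *Plod1* 1 and *Plod3* 4, with 208 of the 250 bases of *Plod3* in annotated exons, and each of the 2 annotated starts of *P3h1* held 2. The stress motif TGATGNAA of the factor ATF4, present in 3.45% of all stretches, was found in 0 of the members' stretches.

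The libraries are described first, because 1 of them stood apart. The estimated reads in genes lay between 3726069 and 4427908 per library. αKG replicate 3 correlated across genes at 0.962 and 0.963 with αKG replicates 1 and 2 but at 0.977 to 0.980 with the DMSO libraries, while those of αKG replicates 1 and 2 gave 0.978 when set against one another. Results are therefore given with all 6 libraries and without αKG replicate 3. That library was picked by its values, which by itself narrows the spread within αKG. The p-values and counts of the fit without it depend on this choice and are descriptive. Over all genes, 759 had a limma adjusted p under 0.05 with all libraries and 7466 without αKG replicate 3. The defining CM genes were strongly expressed (*Ttn* at 51569 to 84136 and *Ryr2* at 8448 to 11406 normalized reads over the 6 libraries), and the summed CM markers were at 77687 to 80178 in DMSO and 82254 to 113657 in αKG. Most of each sum was *Ttn*. The median log2 fold change of the 12 CM markers was 0.07, with 8 of the 12 above 0. Markers of other cell types were also read, so that the cultures were not CMs alone. The 12 fibroblast markers summed to 1818 to 1891 in DMSO and to 2910, 2962 and 1666 in αKG replicates 1 to 3. The 10 endothelial markers summed to 1737 to 1866 in DMSO and to 851 to 1150 in αKG. Of 8 macrophage markers, 4 had a row, with a summed value of 22 to 41, and *Ptprc*, *Adgre1*, *C1qa* and *C1qb* had none.

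All 10 genes had values in every library, with 64 or more estimated reads each. To compare genes with each other, values were divided by the length of each gene's exons in kilobases (kb). In DMSO, *P4hb* was highest at 344 ± 7.04 normalized reads per kb (SD, n = 3), followed by *Plod2* at 131 ± 3.76 and *P4ha1* at 116 ± 3.93. *Crtap* (92.9 ± 2.28), *Plod1* (83.1 ± 3.48), *P3h1* (58.8 ± 3.70) and *Plod3* (41.2 ± 1.81) were intermediate. *P4ha2* (30.4 ± 1.65), *P4ha3* (25.0 ± 0.974) and *P3h2* (20.5 ± 3.61) were lowest. Between neighbours in this order the DMSO libraries did not overlap. In αKG, *P3h2* moved from place 10 to place 6 with 69.6 ± 28.2 per kb, while *P4hb*, *Plod2* and *P4ha1* kept places 1 to 3. There the spread was wider, and *P4ha3* (44.6 ± 8.45), *Plod3* (44.6 ± 6.15) and *P4ha2* (42.7 ± 13.6) overlapped.

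**Figure D1:**
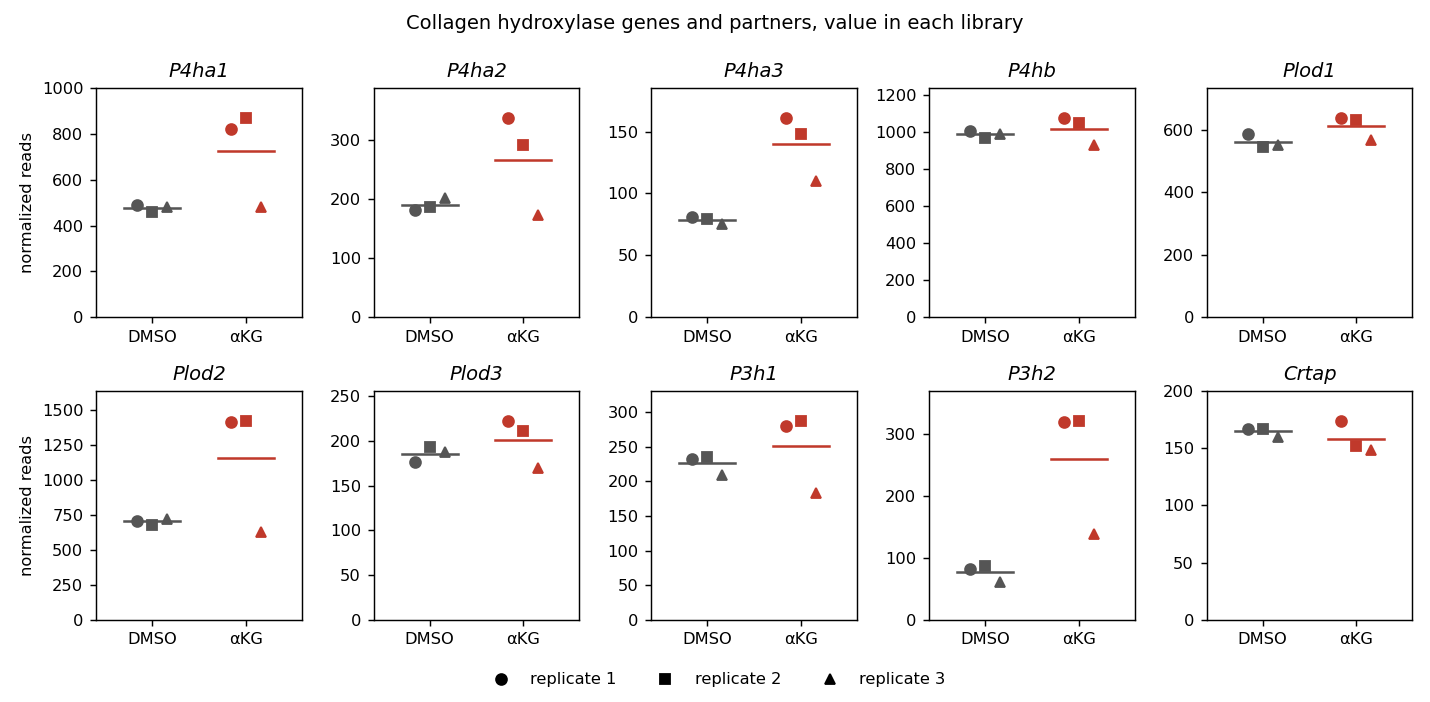
Normalized reads of each of the 10 genes (y axis, starting at 0) in the 3 DMSO libraries (grey) and the 3 αKG libraries (red), with 1 marker shape per replicate number and the group mean as a line. In *P4ha3* and *P3h2* all 3 αKG libraries lie above all 3 DMSO libraries, whereas in *P4ha1*, *P4ha2* and *Plod2* αKG replicates 1 and 2 lie above and αKG replicate 3 at or below the DMSO values.

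Of the 10 genes, 2 rose in αKG, namely *P3h2* and *P4ha3*, and 8 did not pass (limma on log2(value + 1), Benjamini-Hochberg adjusted p under 0.05 over all 20066 genes). Over all genes, 2.83% passed as higher in αKG and 0.952% as lower, 3.78% together. In these 2 members, and in none of the others, the 3 αKG libraries lay above the 3 DMSO libraries, which was the case for 13.7% of all genes. Without adjustment 4 members had a p under 0.05, all higher in αKG. Over all genes 28.1% did, 15.7% as higher and 12.4% as lower. The median log2 fold change of the 10 members was 0.28, against 0.04 over all genes and -0.07 over the 10183 genes with a mean of at least 50. It was 0.52 without αKG replicate 3, against 0.06 over all genes. In bulk RNA, more cells of a type that expresses a gene and more RNA of that gene per cell cannot be told apart.

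*P3h2*, which encodes prolyl 3-hydroxylase 2 and is known from basement membrane collagen, had the largest change of the 10. Replicates 1 to 3 had 82, 86 and 61 normalized reads in DMSO and 318, 321 and 138 in αKG, an order of replicates that is kept in all values by library. Every αKG library was above every DMSO library, with αKG replicate 3 between the DMSO values and the other αKG values. The log2 fold change was 1.67 ± 0.30 (SE), or 3.17-fold (95% interval 1.00 to 2.33 on the log2 scale, limma adjusted p = 0.0279). Without αKG replicate 3 it was 2.07 ± 0.15, or 4.19-fold (limma adjusted p = 0.000615). The call was lost without any 1 of the other libraries, with limma adjusted p = 0.109, 0.222 and 0.226 without DMSO replicates 1, 2 and 3 and 0.242 and 0.257 without αKG replicates 1 and 2, while the log2 fold change stayed between 1.46 and 2.07. It was also lost with limma-voom on estimated reads (adjusted p = 0.0615) and when limma used 1 common prior variance for all levels (adjusted p = 0.148). The gene (ENSMUSG00000038168, GRCm38 chromosome 16, 25959288 to 26105784, - strand) overlaps the exons of the antisense gene *Gm4524*, which reached at most 5 normalized reads in any library.

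*P4ha3*, the least abundant α subunit of prolyl 4-hydroxylase in DMSO, was the second gene to rise. It had 81, 79 and 75 normalized reads in the DMSO libraries and 161, 148 and 110 in the αKG libraries. αKG replicate 3 was again the lowest of its group and still above all DMSO values. The log2 fold change was 0.81 ± 0.16 (SE), or 1.75-fold (95% interval 0.44 to 1.17, limma adjusted p = 0.0365), and 0.97 ± 0.09 without αKG replicate 3 (limma adjusted p = 0.0012). Without DMSO replicates 1, 2 and 3 the limma adjusted p was 0.131, 0.222 and 0.240, and without αKG replicates 1 and 2 it was 0.231 and 0.255, with log2 fold changes between 0.70 and 0.97. This call, too, was lost with limma-voom (adjusted p = 0.0564) and with the common prior variance (limma adjusted p = 0.134). Unlike the call of *P3h2*, that of *P4ha3* was also lost when same-numbered libraries were taken as a block (limma adjusted p = 0.0881). The gene (ENSMUSG00000051048) lies at GRCm38 chromosome 7, 100285520 to 100319699, + strand, and overlaps no other annotated gene.

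The more abundant α subunits showed a different pattern over the libraries. *P4ha1* (ENSMUSG00000019916, chromosome 10, 59323296 to 59373304, + strand) had 492, 460 and 480 normalized reads in DMSO and 823, 870 and 482 in αKG. *P4ha2* (ENSMUSG00000018906, chromosome 11, 54100095 to 54131665, + strand) had 181, 187 and 201 in DMSO and 337, 291 and 172 in αKG. In both genes αKG replicates 1 and 2 were above every DMSO library, whereas αKG replicate 3 lay within the DMSO range for *P4ha1* and below it for *P4ha2*. With all libraries neither passed, with a log2 fold change of 0.55 ± 0.19 for *P4ha1* (limma adjusted p = 0.103) and 0.43 ± 0.21 for *P4ha2* (limma adjusted p = 0.208). Without αKG replicate 3 both passed, at 0.83 ± 0.05 (limma adjusted p = 0.000408) and 0.72 ± 0.09 (limma adjusted p = 0.00225). Over all 17 alternatives the limma adjusted p reached 0.416 for *P4ha1* and 0.595 for *P4ha2*. The β subunit *P4hb* (ENSMUSG00000025130, chromosome 11, 120560298 to 120573253, - strand), which as protein disulfide isomerase also folds many proteins other than collagen, had 1004, 964 and 988 in DMSO and 1074, 1045 and 930 in αKG. Its groups overlapped, with a log2 fold change of 0.04 ± 0.07 (95% interval -0.12 to 0.20, limma adjusted p = 0.720), and it did not pass without αKG replicate 3 either (0.10 ± 0.04, limma adjusted p = 0.0771, the lowest over the alternatives).

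Of the lysyl hydroxylases, *Plod2*, which modifies the telopeptide lysines used in stable cross-links, had the largest difference between groups. Its values were 711, 682 and 721 normalized reads in DMSO and 1418, 1427 and 627 in αKG. αKG replicates 1 and 2 were thus near 1 log2 unit above DMSO, and αKG replicate 3 was below every DMSO library. The log2 fold change of 0.62 ± 0.26 did not pass (95% interval 0.04 to 1.20, limma adjusted p = 0.158), and without αKG replicate 3 it was 1.01 ± 0.04, or 2.02-fold (limma adjusted p = 0.000156, with up to 0.531 under the other alternatives). *Plod2* (ENSMUSG00000032374, chromosome 9, 92542223 to 92608428, + strand) shares exon bases with *Gm38391*, a transcript on the other strand that still awaits experimental proof, with 39 to 70 normalized reads. *Plod1* (ENSMUSG00000019055, chromosome 4, 147909753 to 147936767, - strand), which acts on lysines within the helix, had 589, 546 and 551 in DMSO and 639, 633 and 569 in αKG. Its log2 fold change was 0.13 ± 0.08 (limma adjusted p = 0.307), and 0.18 ± 0.05 without αKG replicate 3, which passed (limma adjusted p = 0.0353, with up to 0.535 under the other alternatives). *Plod3* (ENSMUSG00000004846, chromosome 5, 136987019 to 136996648, + strand), which also transfers sugars to hydroxylysine, had 177, 193 and 188 in DMSO and 223, 211 and 170 in αKG, a log2 fold change of 0.11 ± 0.12 that passed in neither fit (95% interval -0.17 to 0.38). *Plod3* shares exon bases with *Znhit1* on the other strand, at 75 to 107 normalized reads, and the study's RNA-seq methods left out reads that overlap several genes.

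The genes of the prolyl 3-hydroxylase complex differed from *P3h2*. *P3h1* (ENSMUSG00000028641, chromosome 4, 119232915 to 119248975, + strand), whose product modifies fibrillar collagen, had 233, 236 and 210 normalized reads in DMSO and 280, 288 and 184 in αKG. αKG replicate 3 was the lowest of all 6 libraries, the log2 fold change was 0.12 ± 0.16 (95% interval -0.25 to 0.49, limma adjusted p = 0.652), and without this library it was 0.33 ± 0.07 (limma adjusted p = 0.0167, with up to 0.991 under the other alternatives). Its partner *Crtap* (ENSMUSG00000032431, chromosome 9, 114375134 to 114390675, - strand) had 167, 167 and 160 in DMSO and 174, 152 and 148 in αKG. It was the single member with a fold change below 0, at -0.06 ± 0.11 (95% interval -0.31 to 0.19, limma adjusted p = 0.740), and it stayed uncalled without αKG replicate 3 (-0.02 ± 0.09, limma adjusted p = 0.890, the highest over the alternatives). Cyclophilin B (*Ppib*), the remaining subunit of this complex and named outside the rule after its values were seen, was at 294, 297 and 337 in DMSO and 328, 298 and 281 in αKG. The relative *P3h3*, named in the same way, had 65, 53 and 65 in DMSO and 179, 158 and 64 in αKG, so that unlike in *P3h2* αKG replicate 3 lay within the DMSO range.

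**Figure D2:**
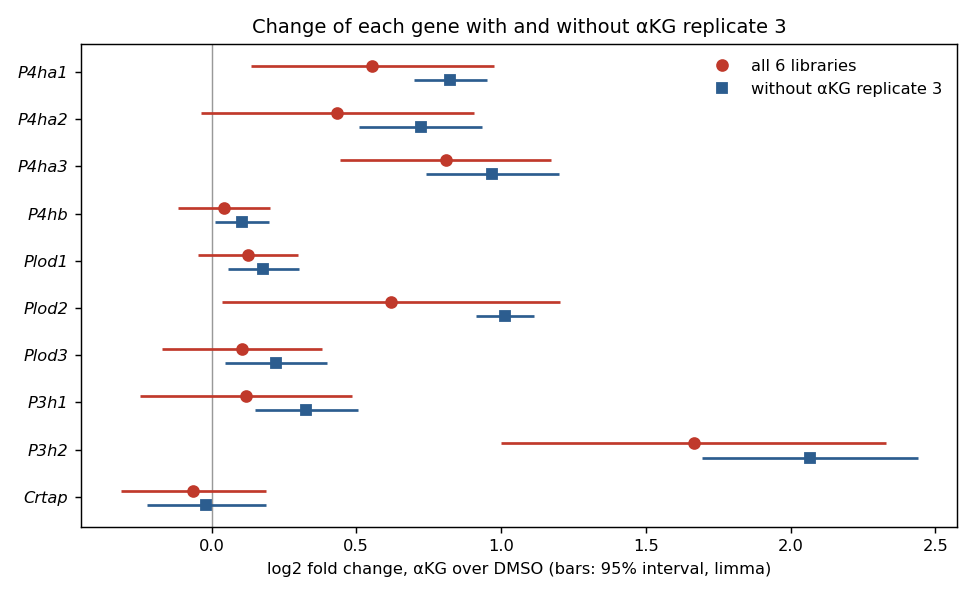
Log2 fold change of αKG over DMSO (x axis) for each of the 10 genes, with all 6 libraries (red circles) and without αKG replicate 3 (blue squares), bars being 95% intervals from limma. With all libraries the intervals of *P3h2* (1.00 to 2.33), *P4ha3* (0.44 to 1.17), *P4ha1* and *Plod2* lie above 0, and without αKG replicate 3 the intervals are narrower and only that of *Crtap* spans 0.

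Read library by library, the 10 genes divided the αKG group. αKG replicate 1 was above all DMSO libraries in 10 of the 10 genes (40.3% of all genes), with a median log2 difference of 0.55 from the DMSO mean. αKG replicate 2 was above in 9 (39.1% of all genes), with a median of 0.48, the exception being *Crtap*. αKG replicate 3 was above in 2, *P4ha3* and *P3h2* (27.3% of all genes), below in 6 and within the DMSO range in 2, with a median of -0.11. The share of all genes below every DMSO library was not counted, so the 6 cannot be set against a background. Without αKG replicate 3, 7 of the 10 genes passed, all higher in αKG, where 37.2% of all genes passed, 19.3% as higher and 17.9% as lower. The 3 that did not were *P4hb*, *Plod3* and *Crtap*. Without adjustment 9 had a p under 0.05 in that fit, all higher, where 48.1% of all genes did, 25.4% as higher and 22.8% as lower. Within DMSO the spread was small: the coefficient of variation was 2.04% to 6.28% for 9 genes and 17.6% for *P3h2*, where counting error alone gives 3.10% to 11.1%. Within αKG it reached 40.5% for *P3h2* and 39.7% for *Plod2* and was lowest for *Plod1* (6.32%), *P4hb* (7.49%) and *Crtap* (8.86%).

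The balance between subunits and isoforms was compared as ratios of reads per kb within a library, which do not depend on how libraries are scaled. With 3 against 3 libraries an exact permutation test cannot give a two-sided p below 0.1, so none of the 9 ratios could pass, and after adjustment over the 9 the smallest value was 0.30. The ratio of *P4hb* to the summed α subunits was 2.01, 2.02 and 1.998 in DMSO and 1.23, 1.20 and 1.81 in αKG. All αKG libraries were below all DMSO libraries (exact permutation p = 0.1, the smallest possible), αKG replicate 3 being the nearest to DMSO. The summed α subunits were at 167 to 174 normalized reads per kb in DMSO and at 305, 305 and 180 in αKG. *P4hb* was at 337 to 351 per kb in DMSO and at 375, 365 and 325 in αKG. In αKG replicate 3 *P4hb* was thus below every DMSO library, and in αKG replicates 1 and 2 above.

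The α subunits kept their proportions more than the lysyl hydroxylases did in αKG replicates 1 and 2. *P4ha1* made up 67.7 ± 0.811% of the α subunits in DMSO (SD, n = 3) and 66.6 ± 2.28% in αKG, and *P4ha2* 17.7 ± 1.02% and 16.1 ± 1.38%. The share of *P4ha3* was 14.8%, 15.1% and 13.8% in DMSO and 16.8%, 15.5% and 19.5% in αKG, again without overlap (exact permutation p = 0.1, the smallest possible), and here αKG replicate 3 was the farthest from DMSO. *Plod2* held 51.1%, 50.6% and 52.1% of the lysyl hydroxylases in DMSO and 64.6%, 65.4% and 48.9% in αKG, so that the groups overlapped through αKG replicate 3 (exact permutation p = 0.4). The share of *Plod1* was 23.2% and 23.1% in αKG replicates 1 and 2, 35.3% in αKG replicate 3 and 31.7% to 33.7% in DMSO. The ratio of *P3h1* to *Crtap* was 0.605 to 0.651 in DMSO and 0.741, 0.873 and 0.573 in αKG (exact permutation p = 0.4).

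**Figure D3:**
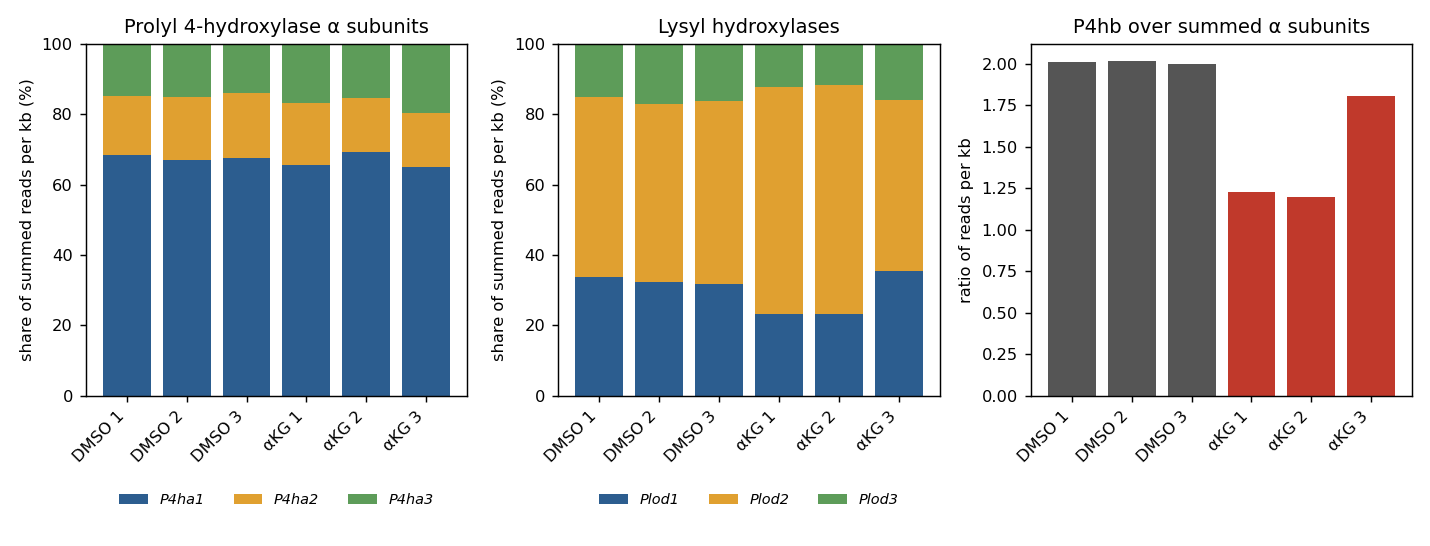
Stacked bars give the share of each isoform (y axis, percent of summed normalized reads per kb) among the prolyl 4-hydroxylase α subunits and among the lysyl hydroxylases in each of the 6 libraries, and the last panel gives the ratio of *P4hb* to the summed α subunits. *Plod2* takes 64.6% and 65.4% in αKG replicates 1 and 2 against 48.9% to 52.1% in the other 4 libraries, and the ratio of *P4hb* is 1.23, 1.20 and 1.81 in αKG against 1.998 to 2.02 in DMSO.

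The substrates of these enzymes were compared with them. Of 26 collagen chain genes, 3 rose and 0 fell, the median log2 fold change was 0.72, and 26 were above 0. Over all genes, 2.83% passed as higher and 52.9% had a log2 fold change above 0. *Col12a1*, a chain that lies along fibrils, had 201, 217 and 205 normalized reads in DMSO and 954, 895 and 333 in αKG, without overlap. It rose by 1.66 ± 0.33 on the log2 scale (limma adjusted p = 0.0350). *Col6a3* and *Col4a4* also rose, by 0.88 ± 0.19 and 0.66 ± 0.16 (limma adjusted p = 0.0424 and 0.0494), and with limma-voom on estimated reads 0 of the 26 passed. The most abundant chains by reads were *Col4a2* and *Col4a1* of the basement membrane, at 0.15 ± 0.06 and 0.15 ± 0.07, which did not pass. Without αKG replicate 3, 22 of the 26 passed as higher, with a median of 1.09, where 19.3% of all genes passed as higher. The 5 fibrillar chains *Col1a1*, *Col1a2*, *Col3a1*, *Col5a1* and *Col5a2* summed to 428 to 453 per kb in DMSO and to 1095, 1050 and 461 in αKG. The 10 hydroxylase genes, summed in the same way, were at 933 to 960 in DMSO and at 1344, 1322 and 911 in αKG. Their ratio to the fibrillar chains was 2.12, 2.09 and 2.19 in DMSO and 1.23, 1.26 and 1.98 in αKG, lower in all 3 αKG libraries (exact permutation p = 0.1, the smallest possible).

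The genes that act beside and after the hydroxylases were counted as well. Among all genes, 28.1% had an unadjusted p under 0.05 with all libraries, 15.7% as higher and 12.4% as lower. Without αKG replicate 3, 19.3% passed as higher. Of 13 partners in folding and modification, 0 passed by limma and 0 by limma-voom with all libraries. Among them, 1 had an unadjusted p under 0.05, as higher, and 6 passed as higher without αKG replicate 3. Their median log2 fold change was 0.10, and 0.16 without αKG replicate 3. The collagen chaperone *Serpinh1* (HSP47), the highest of them, was at 1069, 1051 and 1051 in DMSO and 1106, 1122 and 992 in αKG. The cargo receptor *Mia3*, needed for collagen export from the ER, was at 1053, 1019 and 1059 in DMSO and 1126, 1101 and 1018 in αKG. Of 12 genes for procollagen processing and cross-linking, 0 passed by limma and 0 by limma-voom with all libraries at a median of 0.60. An unadjusted p under 0.05 was found in 5, all higher, and 10 passed as higher without αKG replicate 3. The lysyl oxidases, which cross-link lysines and hydroxylysines outside the cell, were the highest of these: *Loxl2* had 430, 389 and 411 in DMSO and 845, 898 and 473 in αKG, and *Lox* had 364, 339 and 329 in DMSO and 1038, 1072 and 255 in αKG. αKG replicate 3 was thus above DMSO for *Loxl2* and below it for *Lox*.

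Other protein hydroxylases that use αKG did not share a direction. Of 15 such genes with a row, 1 rose, *Asph*, the gene of an aspartyl hydroxylase of the ER (DMSO libraries at 1383, 1475 and 1477, αKG libraries at 1819, 1893 and 1662), by 0.31 ± 0.07 on the log2 scale (limma adjusted p = 0.0408). The values are per gene, so they do not tell which of its transcripts rose or whether these encode the hydroxylase. Over all genes, 2.83% passed as higher with all libraries. The median of the 15 was -0.02 and 7 were above 0, as were 52.9% of all genes. Leaving out 1 library moved this median between -0.11 (without αKG replicate 1) and 0.06 (without αKG replicate 2). *Hif1an*, the asparaginyl hydroxylase that acts on HIF, was lower in all 3 αKG libraries (785, 788 and 837 against 597, 573 and 782) and did not pass (-0.32 ± 0.11, limma adjusted p = 0.111). In the fit without αKG replicate 3, 2 of the 15 passed as higher and 6 as lower, against 19.3% and 17.9% of all genes. The ER-membrane prolyl 4-hydroxylase *P4htm*, named outside the rule after its values were seen, was at 46 to 72 in DMSO and 44 to 70 in αKG.

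Genes of HIF and of ER folding were read because several members are known targets of HIF and *P4hb* is an ER folding enzyme. The shares over all genes were 28.1% at an unadjusted p under 0.05 with all libraries, 15.7% as higher and 12.4% as lower. Without αKG replicate 3 they were 19.3% passing as higher and 17.9% as lower. Of 20 HIF targets, 0 passed by limma and 0 by limma-voom with all libraries. An unadjusted p under 0.05 was found in 7, all higher, and the median was 0.37. Without αKG replicate 3, 15 passed as higher and 1 as lower at a median of 0.65, whereas the median was 0.24 without αKG replicate 1 and 0.19 without αKG replicate 2. *Vegfa*, the endothelial growth factor, had 840, 863 and 910 in DMSO and 1350, 1396 and 838 in αKG, and *Hk2*, a hexokinase, had 1140, 1084 and 1141 in DMSO and 1320, 1418 and 1068 in αKG. As in *P4ha1* and *Plod2*, αKG replicates 1 and 2 were above DMSO and αKG replicate 3 was not. Of 20 ER disulfide isomerases and chaperones, 0 passed by limma and 0 by limma-voom with all libraries at a median of 0.08. Of the 5 with an unadjusted p under 0.05, 4 were higher. Without αKG replicate 3, 8 of the 20 passed as higher at a median of 0.14. The median was 0.03 without αKG replicate 2 and 0.02 after correction for GC content and length. The 2 highest, *Canx* and *Hsp90b1*, had log2 fold changes of 0.09 ± 0.06 and 0.16 ± 0.08 with all libraries, and of 0.14 and 0.24 without αKG replicate 3, where both passed (limma adjusted p = 0.0305 and 0.00574). In that fit *P4hb* was at 0.10 ± 0.04 and did not pass (limma adjusted p = 0.0771). Whether its change differed from theirs was not tested.

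Cell type markers were set beside the hydroxylase genes. Their counts stand against 28.1% of all genes at an unadjusted p under 0.05 with all libraries, 15.7% as higher and 12.4% as lower. At a limma adjusted p under 0.05 with all libraries, 2.83% of all genes passed as higher and 0.952% as lower. Without αKG replicate 3, 19.3% of all genes passed as higher and 17.9% as lower. The median log2 differences of αKG replicates 1, 2 and 3 from the DMSO mean were 0.62, 0.67 and -0.06 for the 12 fibroblast markers, of which 0 passed by limma with all libraries, 4 had an unadjusted p under 0.05 and 7 passed as higher without αKG replicate 3. For the 10 epicardial markers they were 2.25, 2.03 and -0.79, with 0 called by limma with all libraries, 2 at an unadjusted p under 0.05 and 10 called as higher without αKG replicate 3, and the summed level was 483 to 519 in DMSO and 1279, 1238 and 456 in αKG. For the 9 mural markers they were 0.57, 0.36 and 0.00, with *Cnn1* and *Cspg4* called as higher, 6 of 9 above 0, and 4 called as higher and 1 as lower without αKG replicate 3. The mural marker with the highest mean, *Abcc9*, had 2114, 2020 and 2047 in DMSO and 1590, 1495 and 2060 in αKG, a log2 fold change of -0.28 that did not pass (limma adjusted p = 0.126). For the 10 endothelial markers the medians were -0.91, -1.03 and -0.58, and 7 of the 10 fell, while 2 had a log2 fold change above 0, of which 1 was called as higher without αKG replicate 3. Of the 2 fibroblast markers with the highest mean, *Ddr2*, a collagen receptor, had 351, 398 and 398 in DMSO and 894, 797 and 361 in αKG. The other, *Postn*, had 418, 379 and 400 in DMSO and 496, 565 and 308 in αKG. Their log2 fold changes were 0.74 and 0.15, against a median of 0.30 for the 12 fibroblast markers, of which 9 were above 0. The 12 CM markers had medians of 0.08, 0.10 and 0.01, and 0 passed by limma with all libraries. Of the 5 at an unadjusted p under 0.05, 3 were higher. Without αKG replicate 3, 4 of the 12 passed as higher and 2 as lower. Of all these marker lists, limma-voom called genes in the endothelial list alone, 4 of the 10. The part of these marker differences in the values of the hydroxylase genes was not tested.

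**Figure D4:**
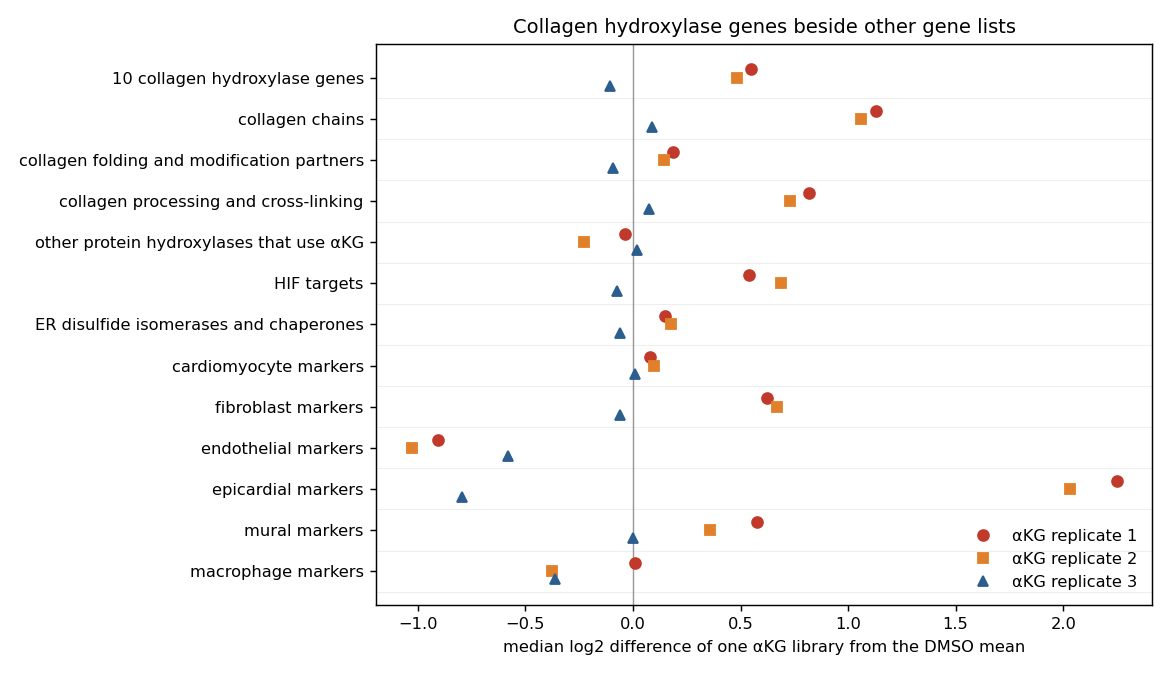
Median log2 difference of each αKG library from the DMSO mean (x axis) for the 10 hydroxylase genes and for 12 other lists of genes, with 1 symbol per αKG replicate. For the hydroxylase genes the medians are 0.55, 0.48 and -0.11. In every other list except other protein hydroxylases, endothelial markers and macrophage markers, αKG replicates 1 and 2 likewise lie to the right of αKG replicate 3.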

How the data were processed

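RNA of 3 DMSO and 3 αKG libraries of neonatal CMs was analysed from 1 deposited table. Per the submitters' processing notes, and methods that the study words for adult CMs, the authors used Trimmomatic 0.39 for trimming, STAR 2.7.10a for alignment to mm10 (GRCm38.p5), featureCounts 2.0.3 for counting per gene and DESeq2 1.30.1 for normalization. Reads of several genes or places were left out, and the library kit marks strand, but the counting was not stated to use it. The deposited values are a score here: reads divided by a size factor and rounded, not raw counts. The labels give 100 µM αKG; the study's methods give another concentration for the octyl ester.

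The value of 1 read was estimated from the spacing of low values (0.926 to 1.12 per library), and dividing by it gave estimated reads; on simulated data this estimate was also tested. Counting error covers sampling only, because PCR copies cannot be told from separate molecules. DMSO replicates 2 and 3 differed little (chi-square 1.02 per gene) but beyond sampling noise in 17 genes, and were kept apart.

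All genes entered limma 3.58.1 (R 4.3.3) on log2(value + 1), with treatment as the only term, no filter and the variance following the mean; the log2 scale with a pseudocount of 1 understates changes of low genes. The plan held edgeR for raw counts, which these are not. Adjusted p-values are Benjamini-Hochberg values over 20066 genes. Exon lengths and GC content came from GENCODE M21, which placed 99.0% of the genes identically. Ratios were tested with exact two-sided permutation tests (scipy 1.17.1, Python 3.11.15). Named were the 10 members and, of each pathway list, up to 3 called genes and the 2 with the highest mean; exceptions are marked, and cell type markers were named after their values were seen. Members, lists and settings were chosen with earlier results of these data known.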

Additional observations from a re-analysis of the deposited data

How the results depend on the processing

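The number of hydroxylase genes past the threshold depended on the libraries and the model. Against 2 with all libraries, it was 0 without the variance trend, 0 with limma-voom on estimated reads, 1 with the replicate block and 0 after DMSO replicates 2 and 3 were averaged, and it ranged from 0 to 7 over the fits that left out 1 library; the fits with 0 had 2 or 3 genes at an unadjusted p under 0.05. The number past an unadjusted p of 0.05, 4 with all libraries, was 2 where the variance did not follow the mean, 2 where DMSO replicates 2 and 3 were averaged, and between 2 and 9 when 1 library was left out. The averaged fit and those without a library have fewer samples; otherwise the cause was not tested. Without the variance trend the limma adjusted p was 0.148 for *P3h2* and 0.134 for *P4ha3*, and with limma-voom 0.0615 and 0.0564. *P3h2* lost its call in 8 of 17 alternatives and *P4ha3* in 9. No log2 fold change of the 10 genes and no difference in the 9 ratios changed sign in any alternative run. Other pseudocounts, the filter at a mean of 10, equal totals, quantile normalization and a correction for GC and length (also joined with the block) left 2 genes called. Deviations of same-numbered libraries from their group means correlated at -0.0744, 0.136 and 0.00192. Because αKG replicate 3 stood far from the other αKG libraries, these values cannot decide whether the cultures were paired. With the replicate block the limma adjusted p of *P4ha3* was 0.0881 and that of *P3h2* 0.0474. Over all genes the block called 46, of which 97.8% were higher, against 74.8% of 759; equal totals gave 66.3%, quantile normalization 69.3% of 641, and the GC and length correction 42.7% of 1237 and, with the block, 41.5% of 1675. Over all genes the calls were 346 with a pseudocount of 0.1, 362 with limma-voom, 10 when DMSO replicates 2 and 3 were averaged and 27 without the trend, and ranged from 0 to 7466 without 1 library. Between 181 and 313 estimated reads stood behind each *Plod3* and *P4ha2* value and 64 to 295 behind each *P3h2* value, where counting error limits small differences. DESeq2 was not run, as the values are not counts.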
